A study of Mus musculus with 6 samples.

Results

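The cells described here are endothelial cells of the mouse mammary gland that carry transcripts of Ackr1 and Selp, both known from venules. They were chosen by their own measured transcripts, counted as UMIs (unique molecular identifiers, 1 for each captured molecule). A cell needed at least 1 UMI of Pecam1, Cdh5 or Emcn, a sum of Ackr1 and Selp of at least 2 and at most 1 UMI of Gpihbp1, with none of the epithelial gene Epcam or the leukocyte gene Ptprc. Of 22244 cells with at least 200 detected genes and under 10% of mitochondrial UMIs, 2686 met the endothelial part of this rule and 631 met all of it. These 631 are called venous cells below. They are contrasted with 766 Gpihbp1-positive endothelial cells, which had at least 2 UMIs of Gpihbp1 and fewer than 2 of Ackr1 and Selp together.

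Female C3(1)-Tag mice on the FVB/NJ background were profiled by single-cell RNA sequencing, with 2 libraries for each of 3 disease states. In this line the C3(1) promoter drives the SV40 large T antigen, mammary tumours arise from the epithelium, and all 6 libraries carry the transgene. Prepuberty was the whole gland at 5 weeks, DCIS the whole gland containing ductal carcinoma in situ at 14 weeks, and Tumor a palpable mass at over 18 weeks, so that state and age cannot be told apart. The labels number the libraries without saying whether they came from different animals, and the study calls them technical replicates in one place and counts them as separate specimens in another, so a p-value below measures the spread between libraries. Per the labels all tissue was digested overnight with enzymes, whereas the study's methods name a different dissociation kit for tumours and a later library kit for Tumor 2. Those differences and the Tumor state cannot be told apart.

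Venules are where most leukocytes leave the blood. Their endothelium stores P-selectin (Selp) together with von Willebrand factor (Vwf) in Weibel-Palade bodies, and it displays E-selectin (Sele), Vcam1 and Icam1, to which rolling leukocytes bind and then hold fast. Ackr1, also known as the Duffy antigen, is an atypical receptor that binds and carries chemokines without G protein signalling. Gpihbp1 marks capillary endothelium, where it anchors lipoprotein lipase at the luminal surface so that fatty acids can be released from circulating lipoproteins.

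The 6 libraries kept between 2606 and 4476 cells each. The venous cells numbered 220 in Prepuberty 1, 121 in Prepuberty 2, 172 in DCIS 1, 112 in DCIS 2, 4 in Tumor 1 and 2 in Tumor 2. Their median depth was 6516.5, 9344, 5905.5, 6963, 4322 and 3735.5 UMIs in that order, below the 9456, 13585, 6739 and 8942 UMIs of the Gpihbp1-positive cells of the first 4 libraries. Any pair of libraries shared between 8 and 35 cell barcodes, of which none marked a venous cell in both. A further 24, 14, 11 and 11 cells of the Prepuberty and DCIS libraries carried at least 2 UMIs of Gpihbp1 as well as of Ackr1 and Selp, and were left out of both classes.

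The transcripts that chose the cells were abundant in most of them. Both Ackr1 and Selp were seen in 189, 87, 150 and 81 venous cells of Prepuberty 1, Prepuberty 2, DCIS 1 and DCIS 2, and the median cell held 16, 13, 13 and 6 UMIs of the pair. Summed over the cells of a library, Ackr1 reached 2353, 1761, 2353 and 1122 CPM (UMIs scaled to a common total, with TMM factors). It was 3.78 or less in the Gpihbp1-positive cells, a gap that the choice of the classes set in advance. Selp reached 1561, 1111, 1581 and 665 CPM. Emcn, an endothelial sialomucin of veins and capillaries, stood at 1097, 559, 1858 and 1250 CPM, and at 703, 266, 1405 and 779 CPM in the Gpihbp1-positive cells. Prepuberty 2 was lowest for Emcn in both classes, and DCIS 2 was lowest for Ackr1 and Selp. At the edge of the rule, 20, 13, 9 and 17 venous cells had exactly 2 UMIs of Ackr1 and Selp, and 53, 20, 24 and 18 endothelial cells with at most 1 Gpihbp1 UMI fell just outside with 1. Exactly 1 Gpihbp1 UMI was present in 14, 14, 5 and 2 venous cells.

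The venous cells made up a larger part of the endothelium in the DCIS libraries than in the Prepuberty libraries, but the difference could not be resolved with 2 libraries per state and the separation depended on how cells were chosen. They were 24.7% (95% Wilson interval 22.0 to 27.7) and 14.9% (12.6 to 17.5) of endothelial cells in Prepuberty 1 and 2. In DCIS 1 and 2 they were 40.8% (36.2 to 45.5) and 27.1% (23.0 to 31.5). The intervals cover counting error only. The DCIS libraries did not overlap the Prepuberty libraries, with means of 33.9% ± 9.69 and 19.8% ± 6.99 (SD, n = 2 each) and a difference of 14.1 percentage points. An exact two-sided permutation test gave p = 0.33, which is the smallest value that 2 against 2 libraries allow. The difference was 7.25 points without DCIS 1. It was 9.09 points when cells with Epcam or Ptprc UMIs were admitted and 7.12 points when every cell was thinned to 2000 UMIs before the rule was applied, and in both the states overlapped, DCIS 2 standing at 21.2% and 18% against 22.2% and 27.8% in Prepuberty 1 (exact permutation test, p = 0.667 in each).

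Of all kept cells, the venous cells were 5.01% and 3.36% in Prepuberty 1 and 2 and 5.43% and 2.80% in DCIS 1 and 2. The states overlapped, with means of 4.19% ± 1.17 and 4.11% ± 1.86 (SD, n = 2 each; exact permutation test, p = 1). Endothelial cells as a whole were 20.3% and 22.6% of the Prepuberty cells and 13.3% and 10.3% of the DCIS cells. The Gpihbp1-positive cells were 23.5% and 35.9% of the endothelium in Prepuberty and 20.6% and 28.7% in DCIS, with overlapping ranges.

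**Figure D1:**
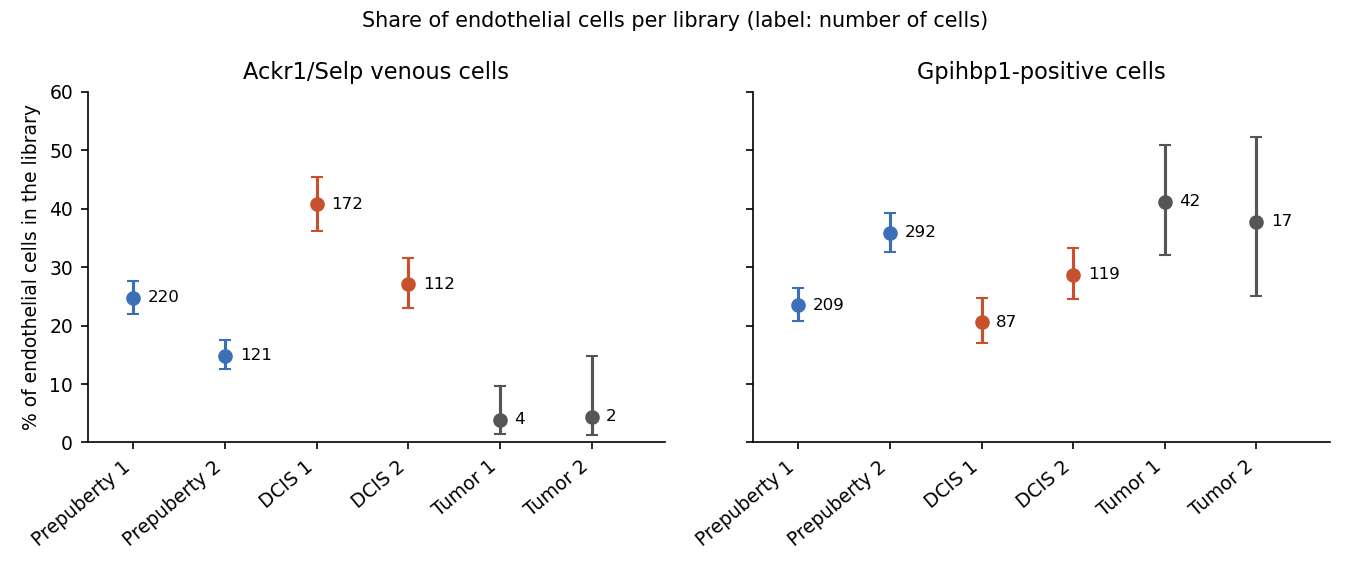
Share of endothelial cells in each of the 6 libraries (y axis, percent) that met the rule for venous cells (left) or were Gpihbp1-positive (right). Points are libraries with the number of cells beside them, and bars are 95% Wilson intervals. The 2 DCIS libraries lie above the 2 Prepuberty libraries for venous cells, and the Tumor libraries hold 4 and 2 venous cells.

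The Tumor libraries held 102 and 45 endothelial cells, of which 4 (3.92%, interval 1.54 to 9.65) and 2 (4.44%, 1.23 to 14.8) were venous and 42 and 17 were Gpihbp1-positive. The 4 venous cells of Tumor 1 carried 14 Ackr1, 57 Selp, 10 Vwf, 20 Lrg1 and 15 Atf3 UMIs. The 2 cells of Tumor 2 carried 17 Ackr1, 1 Selp, 5 Vwf and 40 Lrg1 UMIs and no Atf3. No Sele UMI was found in either, and Vcam1 had 1 UMI in Tumor 1. Their median mitochondrial share was 6.34% and 8.60%, against 1.95% to 2.42% in the venous cells of the other libraries. At a mitochondrial limit of 5%, 1 of 85 and 0 of 29 endothelial cells of Tumor 1 and 2 remained venous, the latter with an interval up to 11.7%. With fewer than 10 cells per library these cells entered no test.

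Vwf and Lrg1, venous markers that the rule did not use, were both found in the chosen cells. Lrg1 encodes a secreted leucine-rich glycoprotein that modulates TGF-beta signalling in vessels. Vwf was detected in 64.1%, 31.4%, 56.4% and 54.5% of venous cells of Prepuberty 1, Prepuberty 2, DCIS 1 and DCIS 2. After thinning each cell to 2000 UMIs, which left out 25, 10, 12 and 7 shallower cells, the shares were 41.5%, 15.3%, 30.6% and 26.7%, against at most 2.38% of Gpihbp1-positive cells and at most 0.147% of fibroblasts, which should lack the gene. Lrg1 was detected in 93.2%, 87.6%, 89.0% and 83.9% of venous cells before thinning and in 80.0%, 68.5%, 80.0% and 66.7% after it, against 6.35% to 31.0% of Gpihbp1-positive cells and at most 0.852% of fibroblasts.

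The UMIs of each library were summed per class and tested with the edgeR quasi-likelihood F test, with the library as a block and the 8 genes of the rule left out. Since both classes were gated on transcripts of the same cells, a gene that goes with Ackr1, Selp or Gpihbp1 from cell to cell had to differ, and the adjusted p describes how regularly it did so over the 4 libraries. Vwf stood at 275, 93.8, 253 and 179 CPM in venous cells of Prepuberty 1, Prepuberty 2, DCIS 1 and DCIS 2, and at 5.04, 0.207, 14.2 and 8.84 CPM in Gpihbp1-positive cells. The log2 fold change was 5.40 ± 0.36 (SE, adjusted p = 3.61e-06). Lrg1 stood at 1512, 1722, 1542 and 1114 CPM against 80.3, 124, 452 and 260, a log2 fold change of 2.98 ± 0.36 (adjusted p = 0.000156). Neither gene overlapped between the classes. Of 10 further venous genes, 8 were higher and none lower, among them the adhesion molecules below and Nr2f2 (log2 1.62 ± 0.17), the transcription factor COUP-TFII that specifies vein identity. Over all 8555 genes tested, 2085 (24.4%) passed an adjusted p of 0.05, 1088 (12.7%) of them higher and 997 (11.7%) lower in venous cells.

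Platelets also hold Selp and Vwf. Of 6 platelet genes, Gp9, Gp1bb and Tubb1 had no UMI in the venous cells of the Prepuberty and DCIS libraries. The summed level of the list was 39.7, 110, 19.9 and 23.1 CPM, against 20.2, 7.25, 19.0 and 8.84 CPM in Gpihbp1-positive cells, and Pf4 and Itga2b, the 2 genes with a test, were both higher in venous cells. The part of these transcripts in the Vwf difference was not tested. Of 6 lymphatic genes with counts Reln was at 0, and the summed level stayed between 38.4 and 42.1 CPM in venous cells.

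The 12 genes with the largest excess in venous cells, among those with the same direction in all 4 libraries, included Olr1, Sele and Slc16a9. Glycam1 had a larger log2 fold change than most of them but no UMI in either class of Prepuberty 1, and is described below. Olr1, the oxidised LDL receptor LOX-1, stood at 149, 141, 203 and 71.9 CPM in venous cells and had no UMI in the Gpihbp1-positive cells, where 667 UMIs were counted in venous cells. That is at least 429.6-fold, taking 3 counts over the whole class as the floor. This bound and the ratios that follow pool the 4 libraries. Sele, the E-selectin gene, stood at 39.7, 32.5, 74.1 and 8.52 CPM, with 180 UMIs against 3, a ratio of 116 (95% counting interval 39.0 to 567). Slc16a9, a monocarboxylate transporter, stood at 14.7, 12.6, 21.0 and 13.4 CPM, with a ratio of 67.6 (18.0 to 569). DCIS 2 was lowest of the 4 libraries for Olr1 and Sele.

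Crp, Hamp and Npy were also among the 12. Crp, the C-reactive protein gene, stood at 51.9, 24.4, 7.74 and 20.7 CPM in venous cells, with a ratio of 267 over the Gpihbp1-positive cells (95% counting interval 47.1 to 10607). Hamp, which encodes the iron hormone hepcidin, stood at 14.7, 19.9, 71.9 and 23.1 CPM, with a ratio of 129 (35.1 to 1079.9). Npy, neuropeptide Y, was uneven between states, with 1.28 and 4.43 CPM in Prepuberty and 24.3 and 40.2 in DCIS, and had no UMI in Gpihbp1-positive cells. AU021092, a gene without an assigned role, was at least 28.3-fold higher. Cytl1, Gkn3, Fam107a and Mgp, of the same 12, are described with the cells that held them.

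Promoters of 250 bases were searched in RefSeq (GRCm38.p6) for the AP-1 motif TGANTCA (N is any base) on both strands, since the selectins and Olr1 are genes of inflamed endothelium. Of 15 genes searched, namely Ackr1, Selp, Lrg1 and the 12 largest differences, 12 had a promoter entry. The AP-1 letters were found in 5 of these, Selp, Sele, Olr1, Crp and Hamp, and in 6.75% of all 32851 promoters. A single narrow kappa-B pattern, searched in the same windows, had no match in the 12 and was found in 1.41% of all promoters. Other forms of that motif were not searched. The shares of all promoters cannot serve as a test of the 12, and no enrichment is read from them. The genes were picked from these data, Selp chose the cells, and AP-1 was chosen with the selectins and Olr1 in view. The 12 are also counted as genes, of which Fam107a has 3 promoters, whereas the shares count promoters. The promoters of Ackr1 and Selp, which chose the cells, and of Sele and Olr1, which were higher in them, are shown 5′ to 3′ with the AP-1 letters in capitals. They lie at chr1:173333504-173333753 (minus strand), chr1:164115014-164115263 (plus), chr1:164047984-164048233 (plus) and chr6:129507166-129507415 (minus). The Ackr1 window precedes the RefSeq start and overlaps the longer GENCODE model of the gene, chr1:173331886-173333750. A match is a description of these letters and does not show that a factor binds them.
Ackr1: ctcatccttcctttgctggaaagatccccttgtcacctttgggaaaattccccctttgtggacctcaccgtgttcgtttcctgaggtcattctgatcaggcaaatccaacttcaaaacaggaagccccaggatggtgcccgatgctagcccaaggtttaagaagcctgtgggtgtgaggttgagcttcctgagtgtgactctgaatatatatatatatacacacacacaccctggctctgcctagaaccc
Selp: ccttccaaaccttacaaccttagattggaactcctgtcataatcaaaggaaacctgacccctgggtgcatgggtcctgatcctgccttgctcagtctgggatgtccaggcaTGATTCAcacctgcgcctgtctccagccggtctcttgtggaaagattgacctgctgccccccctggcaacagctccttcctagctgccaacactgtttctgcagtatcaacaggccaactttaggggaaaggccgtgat
Sele: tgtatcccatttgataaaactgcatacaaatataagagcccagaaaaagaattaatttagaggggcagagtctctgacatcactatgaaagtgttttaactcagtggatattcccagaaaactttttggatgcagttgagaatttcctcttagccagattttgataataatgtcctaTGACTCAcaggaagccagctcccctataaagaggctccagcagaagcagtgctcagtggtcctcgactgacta
Olr1: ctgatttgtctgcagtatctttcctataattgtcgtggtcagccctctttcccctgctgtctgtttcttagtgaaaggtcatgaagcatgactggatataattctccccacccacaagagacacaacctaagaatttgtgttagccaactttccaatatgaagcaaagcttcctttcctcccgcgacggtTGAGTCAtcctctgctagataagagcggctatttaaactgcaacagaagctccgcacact

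Selp and Sele lie in the selectin cluster of chromosome 1, with Sele at chr1:164048234-164057677. The Selp match TGATTCA and the Sele match TGACTCA each stand once in their windows, as does TGAGTCA in that of Olr1, whose gene lies at chr6:129485244-129507165.

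**Figure D2:**
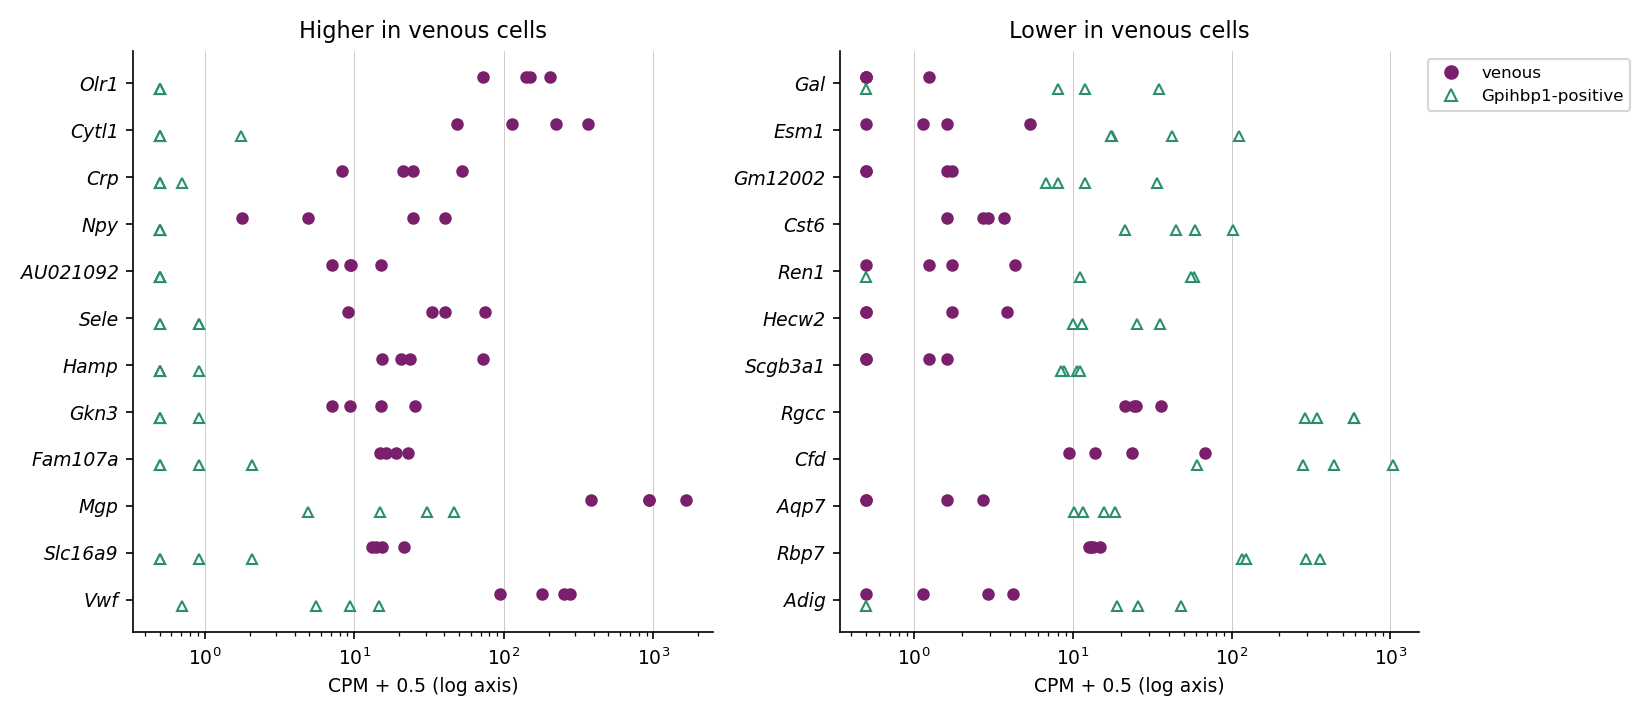
CPM plus 0.5 on a log axis for the 12 genes most raised (left) and the 12 most lowered (right) in venous cells relative to Gpihbp1-positive cells, by log2 fold change. Each symbol is 1 of the 4 Prepuberty and DCIS libraries. Filled circles (venous) and open triangles (Gpihbp1-positive) are separate for all 12 genes on the left, and on the right they overlap for Gal, Ren1, Adig and Cfd.

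Genes for leukocyte adhesion and transit went in both directions. Vcam1, which binds integrin alpha4 beta1, stood at 343, 238, 692 and 259 CPM in venous cells and at 31.1, 26.9, 12.6 and 9.72 in Gpihbp1-positive cells (log2 3.89 ± 0.30, adjusted p = 8.05e-06). Icam1, the ligand of LFA-1, stood at 417, 273, 636 and 307 CPM against 105, 107, 88.5 and 82.2 (log2 1.97 ± 0.19). DCIS 1 was highest for both, and no library of one class reached the other class. Jam3 and Cd34 went the other way, by -1.70 ± 0.18 and -0.61 ± 0.11. Of 14 genes tested for adhesion and transit, 4 were higher and 4 lower, against 12.7% and 11.7% of all genes. Their median log2 fold change was 0.16 against -0.01 over all genes tested. The other calls, named after their values were seen, were Sele and Podxl (1.20 ± 0.25), higher, and Madcam1 (-2.47 ± 0.37) and Esam (-0.42 ± 0.12), lower. Cd34 and Madcam1 lost their call when the library was not a block.

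Most receptors for inflammatory signals were higher in venous cells. Of 20 tested, 15 were higher and none lower, against 12.7% and 11.7% of all genes, with a median log2 fold change of 0.89 against -0.01 over all genes. Il6st, the shared gp130 subunit of the IL-6 family receptors, stood at 554, 373, 376 and 189 CPM against 124, 98.6, 93.3 and 67.2 (log2 1.92 ± 0.13). Lifr, its partner for leukaemia inhibitory factor, was higher by 2.16 ± 0.17. Ptafr, the receptor of platelet-activating factor, was higher by 3.68 ± 0.42, with 39.7, 13.3, 35.4 and 17.0 CPM against at most 9.49. Tlr2, a receptor for bacterial lipoproteins, was higher by 2.37 ± 0.32. Among genes of NF-kB feedback, Nfkbiz (1.15 ± 0.14) and Tnip1 (1.33 ± 0.17) were higher and Tnfaip2 lower (-0.92 ± 0.13). Of 17 such genes tested 4 were higher and 2 lower (median 0.26), against 12.7% and 11.7% of all genes.

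Chemokine and cytokine genes were divided, 5 higher and 5 lower of 20 tested, against 12.7% and 11.7% of all genes. Csf3, the granulocyte growth factor G-CSF, stood at 610, 465, 1124 and 711 CPM in venous cells and at 26.1, 29.8, 125 and 36.2 in Gpihbp1-positive cells (log2 3.98 ± 0.20). Cxcl12, which attracts CXCR4-bearing cells, stood at 23.7, 11.8, 42.0 and 18.3 CPM against 98.3, 124, 256 and 130 (log2 -2.66 ± 0.19). Ccl2, a monocyte chemoattractant, was lower by -1.62 ± 0.16 and Cx3cl1 by -1.80 ± 0.30. Both classes of DCIS 1 stood highest for Csf3 and Cxcl12. The call for Ccl2 was lost without the library block, and that for Cx3cl1 when cells were thinned.

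Fatty acid handling marked the other class. Of 8 lipid uptake genes tested, 6 were lower and 1 was higher in venous cells, against 11.7% and 12.7% of all genes. Their median log2 fold change was -2.29 against -0.01 over all genes. Fabp4, a fatty acid carrier, stood at 2032, 1422, 3178 and 3220 CPM in venous cells against 11493, 7896, 15535 and 13294 (log2 -2.33 ± 0.08). Fabp5 was lower by -2.49 ± 0.11, Pparg, the nuclear receptor that controls such genes, by -2.38 ± 0.21, and Cd36, a fatty acid translocase, by -0.90 ± 0.09, a call lost without the library block. Of 11 capillary genes tested 9 were lower and 1 higher, including Rgcc at 24.3, 23.6, 35.4 and 20.7 CPM against 347, 291, 593 and 589 (log2 -4.04 ± 0.18). The retinol-binding Rbp7 was lower by -3.87 ± 0.24, the cystatin Cst6 by -4.57 ± 0.29 and the tip-cell proteoglycan gene Esm1 by -4.82 ± 0.44. Cfd and Adig, genes of fat cells, were lower by -4.04 ± 0.27 and -3.83 ± 0.37. The summed adipocyte markers were 8.96, 6.65, 1.11 and 2.44 CPM in venous cells and 53.4, 85.4, 11.1 and 35.4 CPM in Gpihbp1-positive cells, and the 10 mural genes of pericytes and smooth muscle 491, 298, 97.3 and 218 against 784, 975, 247 and 515 CPM. The part of either in this difference was not tested.

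Endothelial transcription factors were divided. Gata6 stood at 26.9, 33.2, 42.0 and 21.9 CPM in venous cells and at no more than 2.49 in Gpihbp1-positive cells (log2 3.85 ± 0.28). Meox1, a homeobox factor, was higher by 2.12 ± 0.17, as was Meox2, which stood on the capillary list, by 0.82 ± 0.21. Tcf15, a capillary factor, was lower by -1.57 ± 0.16 and the Notch target Hey1 by -3.58 ± 0.33. Of 20 endothelial transcription factors 9 were higher and 5 lower (median 0.38), against 12.7% and 11.7% of all genes. Of 25 growth ligands and receptors 8 were higher and 8 lower, to be read against the same shares. Bmp4 was higher by 4.11 ± 0.35, while the VEGF receptor-1 ligand Pgf was lower by -2.27 ± 0.15 and the arterial ligand Efnb2 by -2.95 ± 0.23. Angpt2, a Tie2 ligand stored with Vwf, was higher by 0.95 ± 0.12, a call lost without the library block.

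Junction, matrix and stress genes completed the contrast. Cldn5, the tight junction claudin of endothelium, stood at 220, 352, 91.8 and 256 CPM in venous cells against 2187, 2084, 1592 and 2134 (log2 -3.22 ± 0.19). Plvap, which forms the diaphragms of fenestrae and caveolae, was higher by 1.11 ± 0.20, a call lost without the library block. Among 13 basement membrane genes 2 were higher and 5 lower, against 12.7% and 11.7% of all genes. Col15a1 was higher by 2.18 ± 0.26 and Col4a1 lower by -1.09 ± 0.11. All 12 heat shock genes were lower in venous cells (median -0.78), Hspa1a by -1.64 ± 0.18 and Dnaja1 by -0.99 ± 0.09. Hspa1a and Hsp90ab1 lost their call without the library block. Klf2, induced by laminar flow, was higher by 1.56 ± 0.20. Of 19 interferon response genes 6 were lower and none higher (median -0.19), against 11.7% and 12.7% of all genes. Of 10 antigen presentation genes 4 were lower and 2 higher (median -0.04), and of 18 immediate early genes 6 were lower and 3 higher (median -0.14). For these lists, in that order, DESeq2 called 3, 3 and 6 lower and 0, 1 and 3 higher.

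Not all venous cells carried Ackr1, and those without it differed in content. A total of 25, 24, 16 and 19 cells of Prepuberty 1, Prepuberty 2, DCIS 1 and DCIS 2 met the rule through Selp alone. This division was made after the values had been seen, and no test was run on it. These cells held 88.6% of the venous UMIs of Cytl1, a secreted cytokine-like protein, 95.6% of those of Gkn3, a gastrokine, 88.4% of those of Mgp, the matrix Gla protein that inhibits calcification, and 68.6% of those of Fam107a. Scaled to the total of the subset, Cytl1 stood at 3197, 246, 369 and 1535 CPM in them and at 20.1, 1.10, 65.0 and 12.9 in the Ackr1-carrying cells. Its UMIs came from 7, 6, 3 and 7 of the cells without Ackr1, so few cells set these levels. Over all venous cells, the ratio to the Gpihbp1-positive cells was 594 for Cytl1 (95% counting interval 203 to 2888), 131 for Gkn3 (22.8 to 5265) and 83.1 for Fam107a (22.3 to 697).

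Several arterial genes were found mostly in the same cells. Gja5, which encodes the arterial gap junction protein connexin 40, had 36, 28, 0 and 6 UMIs in the cells without Ackr1 and 0, 0, 0 and 4 in the cells with it. Stmn2, a stathmin found in arterial endothelium, had 45, 12, 23 and 18 UMIs against 1, 1, 10 and 1. Bmx, an arterial tyrosine kinase, had 8, 11, 1 and 5 UMIs against 1, 0, 0 and 3. Lrg1 went the other way, at 499.5, 789, 598 and 328 CPM of the subset without Ackr1 and 1581, 2338, 1335 and 1132 with it. Vcam1 stood at 1023, 696, 797 and 816 CPM against 251, 155, 546 and 156, and the groups did not overlap for either gene. Not every arterial gene was divided this way: Sox17 stood at 58.8, 96.2, 49.8 and 17.7 CPM without Ackr1 and at 25.7, 40.7, 96.0 and 64.5 with it, higher without Ackr1 in the Prepuberty libraries and lower in the DCIS libraries.

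Against the Gpihbp1-positive cells, 3 of 10 arterial genes tested were higher in the venous cells and 5 were lower. Over all genes tested 12.7% were higher and 11.7% lower. The 3 were Gja5 (3.12 ± 0.42), Stmn2 (4.66 ± 0.41) and Bmx. When only venous cells with an Ackr1 UMI were used, an alternative chosen after seeing the data, the log2 fold change of Mgp moved from 5.54 to 2.43, while Gkn3, Fam107a and AU021092 had too few counts for a test. Vwf moved from 5.40 to 5.21, Lrg1 from 2.98 to 3.13 and Vcam1 from 3.89 to 3.42. Vwf and Lrg1 were thus as far from the Gpihbp1-positive cells without the cells chosen through Selp alone, some of which carried arterial transcripts.

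**Figure D3:**
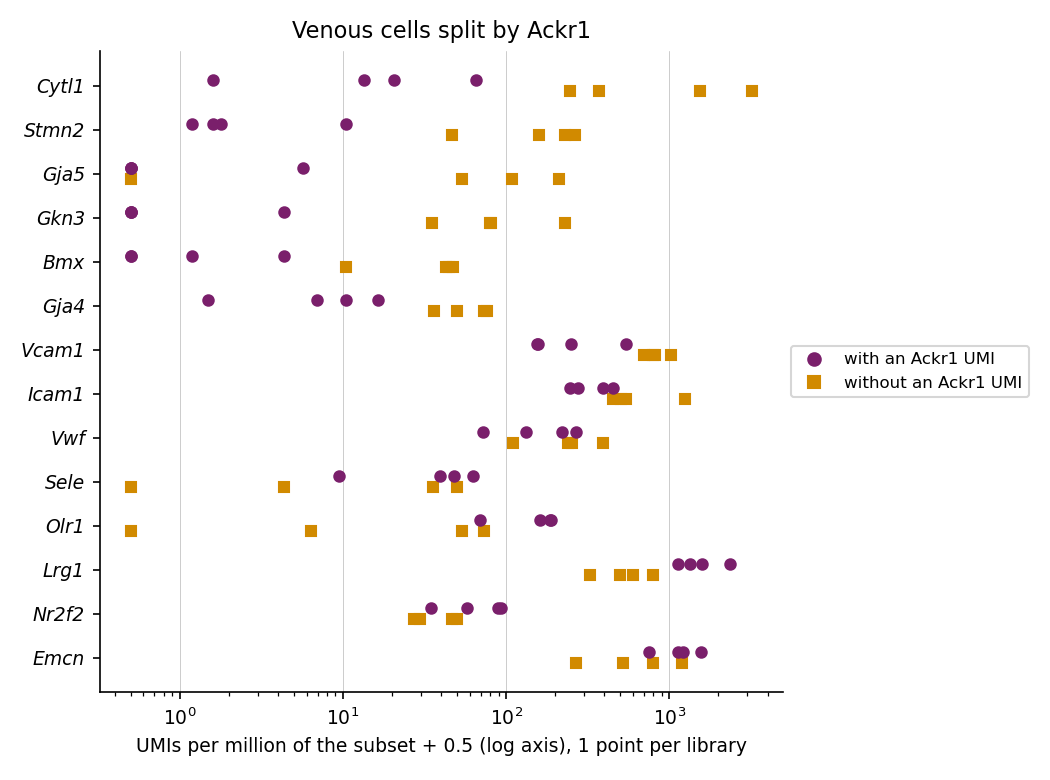
UMIs scaled to the total of the subset, plus 0.5, on a log axis, for the venous cells with an Ackr1 UMI (circles) and without (squares), with 1 symbol per Prepuberty or DCIS library. Cytl1, Gkn3, Stmn2 and Vcam1 stood higher in the cells without Ackr1 in every library, and Lrg1 stood higher in the cells with it.

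High endothelial venules are the specialised venules of lymphoid tissue, and Glycam1, which encodes a sulphated sialomucin that binds L-selectin, is one of their genes. Venous cells of Prepuberty 1, Prepuberty 2, DCIS 1 and DCIS 2 held 0, 8584, 28 and 35 Glycam1 UMIs. In Prepuberty 2 these came almost wholly from 12 of its 121 venous cells, which held 99.9% of them and up to 3013 in 1 cell. Of those 12, 9 carried Chst4 and 2 carried Fut7, enzymes that build the L-selectin ligand, while 12 carried Lrg1, 1 carried Vwf and none Madcam1. Enpp2 was found in 8 of the 12 cells and Chst2 in 6. Among the other 109 venous cells of that library, 2 carried Chst4, 12 carried Enpp2 and 9 carried Chst2. The 292 Gpihbp1-positive cells of the library included 22 with a single Glycam1 UMI each, and 225 of all its kept cells had at least 1.

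DCIS 1 held 1526 Glycam1 UMIs in 25 of its kept cells, with 28 of the UMIs in venous cells. The type of the other cells was not examined, so their Glycam1 is not read as a sign of high endothelial venules. DCIS against Prepuberty gave a log2 fold change of -6.48 that did not pass (adjusted p = 0.228), and leaving out Prepuberty 2 turned it to 8.32, a value that rests on a library with no Glycam1 UMI and is no bound. The excess over Gpihbp1-positive cells, 10.27 ± 0.42, fell to 5.54 without Prepuberty 2. Enpp2, which makes lysophosphatidic acid and is also known from high endothelial venules, was lower in venous than in Gpihbp1-positive cells (-2.07 ± 0.22), a call lost without the library block.

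DCIS against Prepuberty changed few genes of the venous cells past the threshold. Of 7720 genes tested with 2 libraries per state, 10 (0.13%) passed an adjusted p of 0.05, 5 (0.0648%) higher and 5 (0.0648%) lower in DCIS, while 1090 had an unadjusted p under 0.05. DESeq2 called 50 genes, the 10 among them. Leaving out 1 library left its state with a single library, which the fit assumes to vary like those of the other state. The count was then 362 without Prepuberty 1, 192 without Prepuberty 2, 22 without DCIS 2 and 9 without DCIS 1, all 9 higher and 3 of them among the 10. It fell to 1 when the state was tested in the fit of both classes, to 6 with cells thinned to 2000 UMIs, and to 0 when the library sums were thinned to equal depth (960 genes at an unadjusted p under 0.05) or when cells with Epcam or Ptprc UMIs were admitted (1030 genes; edgeR in both cases).

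The genes higher in DCIS included stress and growth factor genes. Atf3 (chr1:191170296-191218039, minus strand, GRCm38), a transcription factor induced by stress, stood at 36.5 and 48.8 CPM in the Prepuberty libraries and 233 and 239 in the DCIS libraries, a log2 fold change of 2.43 ± 0.25 (adjusted p = 0.0109). Pcp4l1 (chr1:171173262-171196268, minus strand), which encodes a small protein related to the calmodulin regulator Pcp4, stood at 5.12 and 1.48 against 63.0 and 63.3 CPM (4.13 ± 0.44, adjusted p = 0.0109). For both genes the states were further apart than the libraries of a state. Hbegf, a ligand of the EGF receptor, stood at 43.5 and 51.0 against 229 and 160 CPM (2.00 ± 0.25). Cyr61, a matricellular protein, stood at 65.9 and 82.8 against 266 and 208 (1.63 ± 0.25), and its adjusted p of 0.048 was the nearest to the threshold. The histone gene Hist1h2bc stood at 37.1 and 36.9 against 134 and 174 (2.01 ± 0.24).

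The genes lower in DCIS had varied roles. Cxcl5, a chemoattractant of neutrophils, stood at 287 and 112 CPM in Prepuberty and 23.2 and 25.6 in DCIS (-3.06 ± 0.43, adjusted p = 0.0321). Ifitm1, an interferon-induced membrane protein, stood at 209 and 142 against 37.6 and 42.6 (-2.17 ± 0.27). Sdc4, a heparan sulphate proteoglycan, stood at 144 and 120 against 43.1 and 29.2 (-1.90 ± 0.26). No library of one state reached the other state for these genes. Gstm1, a glutathione transferase, was lower by -1.84 ± 0.23 and the zinc transporter Slc39a1 by -1.54 ± 0.22. Hist1h2bc, Gstm1, Ifitm1 and the Hspa1 genes have close relatives in the genome whose reads may be shared among them.

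Some of these calls were lost when a library was left out. Without DCIS 1 the calls for Hbegf, Cyr61, Cxcl5, Ifitm1, Sdc4, Gstm1 and Slc39a1 were lost, and without DCIS 2 those for Cxcl5, Ifitm1, Sdc4, Gstm1 and Slc39a1. Over all 16 alternatives the log2 fold change of Hbegf stayed between 1.70 and 2.25 and that of Cxcl5 between -4.28 and -2.22. That of Sdc4 ran from -2.17 to -1.04 and that of Pcp4l1 from 3.57 to 5.28. With 1 library left out the spread comes from the other state alone, so a call lost or kept says little of its stability. Gpihbp1-positive cells gave Atf3 values of 49.2, 103, 296 and 219 CPM and Cxcl5 values of 208, 118, 26.9 and 30.1 CPM in Prepuberty 1, Prepuberty 2, DCIS 1 and DCIS 2. Pcp4l1 stood at 5.46, 1.87, 20.6 and 3.54 CPM there. The DCIS effect of the 10 genes was not shown to differ between the classes, with adjusted p between 0.507 and 0.987 for the interaction, which does not show that they acted alike.

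**Figure D4:**
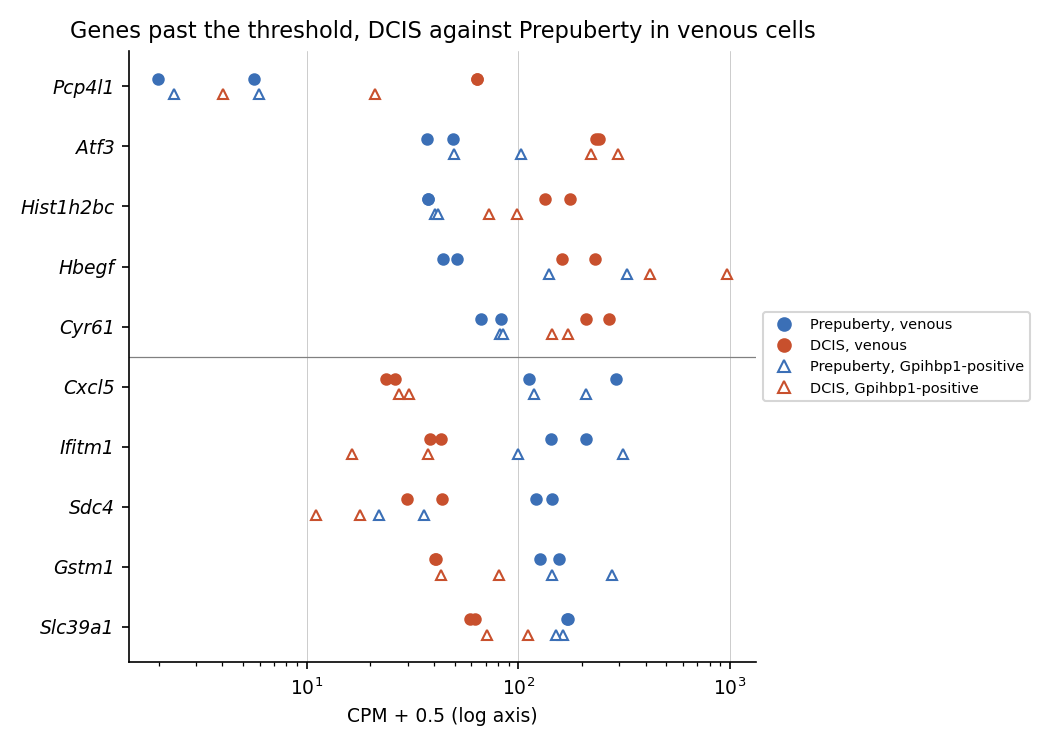
CPM plus 0.5 on a log axis for the 10 genes past the threshold between DCIS (red) and Prepuberty (blue) in venous cells (circles), with the Gpihbp1-positive cells as open triangles and 1 symbol per library. The states do not overlap in venous cells for any of the 10 genes, and the widest pairs of 1 state are Pcp4l1 and Cxcl5 in Prepuberty, at 5.12 and 1.48 and at 287 and 112 CPM.

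Vwf, Lrg1 and the adhesion genes Sele, Vcam1 and Icam1 did not pass the test between states. Vwf stood at 275 and 93.8 CPM in Prepuberty and 253 and 179 in DCIS (log2 0.19 ± 0.41, adjusted p = 0.881), and its sign turned when Prepuberty 2 or DCIS 1 was left out (-0.37 and -0.04). Lrg1 stood at 1512 and 1722 against 1542 and 1114 (-0.33 ± 0.29, adjusted p = 0.649). Sele, at 39.7 and 32.5 against 74.1 and 8.52, had its highest and its lowest value in the DCIS libraries and reached -2.07 without DCIS 1. Vcam1 (0.67 ± 0.40) and Icam1 (0.41 ± 0.35) had their highest value in DCIS 1, and both turned to -0.16 without it. Among 14 adhesion genes, Pecam1 of the rule included, none passed in edgeR or DESeq2, with 3 at an unadjusted p under 0.05, of which Jam2 had the smallest (0.99 ± 0.24, adjusted p = 0.136).

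Heat shock genes had mostly higher values in DCIS. None of 12 passed in edgeR, 8 had an unadjusted p under 0.05 with higher values in DCIS, and DESeq2 called 6, with a median of 0.98 against -0.02 over all genes. Over all 7720 genes, 1090 had such a p in either direction and DESeq2 called 50. Hspa1b stood at 74.3 and 111 CPM in Prepuberty and 271 and 586 in DCIS (2.18 ± 0.38, adjusted p = 0.0578), and Hspa1a at 291 and 599 against 1454 and 2315. Of 18 immediate early genes, 7 had higher values at an unadjusted p under 0.05 (median 0.29), among them Atf3, which passed. Klf6 stood at 154 and 172 against 479 and 386 CPM (1.37 ± 0.24, adjusted p = 0.0578).

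Interferon genes had mostly lower values in DCIS. Of 18 interferon genes none passed in edgeR, 6 had lower values in DCIS at an unadjusted p under 0.05, against 1090 of all 7720 genes in either direction, and DESeq2 called Ifit1 (median -0.42). Isg15 stood at 1220 and 935 CPM in Prepuberty and 580 and 468 in DCIS (-1.08 ± 0.27, adjusted p = 0.141), and Ifit1 at 452 and 318 against 202 and 119. Chemokine and cytokine genes were mixed. Of 18 tested, 5 had lower and 3 higher values in DCIS at an unadjusted p under 0.05, and the median was 0.41. Cxcl5, among the 5, passed. The 3 with higher values, named after their values were seen, were Cxcl9 (1.04 ± 0.32), Il33 (3.03 ± 1.001) and Csf3 (0.73 ± 0.29), with adjusted p of 0.207 to 0.311. Cxcl10 stood at 118 and 248 against 74.1 and 28.0 (-1.88 ± 0.44, adjusted p = 0.13).

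Transcripts of other cell types moved between the libraries. The mural genes summed to 491 and 298 CPM in Prepuberty venous cells and 97.3 and 218 in DCIS, and the 6 fibroblast genes to 486 and 257 against 300 and 177. The 5 red cell genes summed to 72.3 and 5.91 CPM in Prepuberty and 69.7 and 1682 in DCIS, with Alas2 at 0. Epithelial genes stayed between 5.91 and 39.8 CPM with Epcam and Krt5 at 0, and leukocyte genes between 3.84 and 23.2 CPM with Ptprc and Cd3e at 0, where Epcam and Ptprc are at 0 by the rule. The part of these transcripts in the DCIS differences was not tested.

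The effect of DCIS differed between venous and Gpihbp1-positive cells for 7 of 8555 genes (0.0818%), 6 (0.0701%) with a more positive and 1 (0.0117%) with a more negative effect in venous cells. Lrg1 was the latter. In Gpihbp1-positive cells it stood at 80.3 and 124 CPM in Prepuberty and 452 and 260 in DCIS, while in venous cells it stayed between 1114 and 1722, a difference of the log2 effects of -2.07 ± 0.20 (adjusted p = 0.00589). The gap between the classes was thus smaller in DCIS. The call was lost when the library was not a block, where no gene passed and 269 had an unadjusted p under 0.05 in edgeR.

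Fgl2, a prothrombinase of the fibrinogen family, stood at 87.7 and 19.9 CPM in Prepuberty venous cells and 199 and 152 in DCIS, and at 62.6 and 15.8 against 0 and 6.19 in Gpihbp1-positive cells (4.98 ± 0.55, adjusted p = 0.00673). Timp1, an inhibitor of metalloproteinases, stood at 191 and 77.6 against 193 and 139 in venous cells and at 177 and 52.2 against 36.4 and 26.5 in Gpihbp1-positive cells (2.08 ± 0.27). For both genes the classes overlapped in Prepuberty and were apart in DCIS. Ccl7, a monocyte chemoattractant, stood at 367 and 327 against 148 and 194 in venous cells and at 669 and 601 against 77.5 and 126 in Gpihbp1-positive cells (1.63 ± 0.21). Thbs2, an anti-angiogenic thrombospondin, differed by 4 ± 0.54 on the log2 scale, with at most 39.1 CPM in any venous library, and its call was lost without Prepuberty 1 (adjusted p = 0.0787) or DCIS 2 (0.322). The 6 fibroblast genes summed to 411 and 269 CPM in Prepuberty and 99.6 and 54.8 in DCIS in Gpihbp1-positive cells. In venous cells they summed to 486 and 257 against 300 and 177. Timp1 and Ccl7 were also lower in DCIS in Gpihbp1-positive cells, but Timp1 was not lower in venous cells. The part of the fibroblast genes in the differences of Timp1, Ccl7 and Thbs2 was not tested. The nuclear RNA Malat1 differed by 0.56 ± 0.08, a call lost without DCIS 2. With doublets removed the calls for Timp1, Ccl7, Thbs2 and Malat1 were lost, and DESeq2 did not call Fgl2, Thbs2 or Malat1.

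Hbb-bs, a beta globin gene of red cells, stood at 22.4, 2.96, 40.9 and 844 CPM in venous cells of Prepuberty 1, Prepuberty 2, DCIS 1 and DCIS 2, and at 515, 99.9, 12.6 and 1239 in Gpihbp1-positive cells (4.47 ± 0.48). The summed red cell genes followed it, at 944, 208, 23.7 and 2583 CPM in Gpihbp1-positive cells. Their part in the difference was not tested.

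In the negative direction fewer than 3 genes passed. Among those of smallest p that did not pass were Cd200 (-1.17 ± 0.20, adjusted p = 0.113), Lmo2 (-1.10 ± 0.21), Exoc3l2 and Nupr1 (adjusted p up to 0.165). Cd200, a membrane glycoprotein that restrains myeloid cells, stood at 537 and 411 CPM in Prepuberty and 692 and 408 in DCIS in venous cells, and at 96.2 and 58.9 against 242 and 151 in Gpihbp1-positive cells. The states overlapped in venous cells and were apart in Gpihbp1-positive cells.

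**Figure D5:**
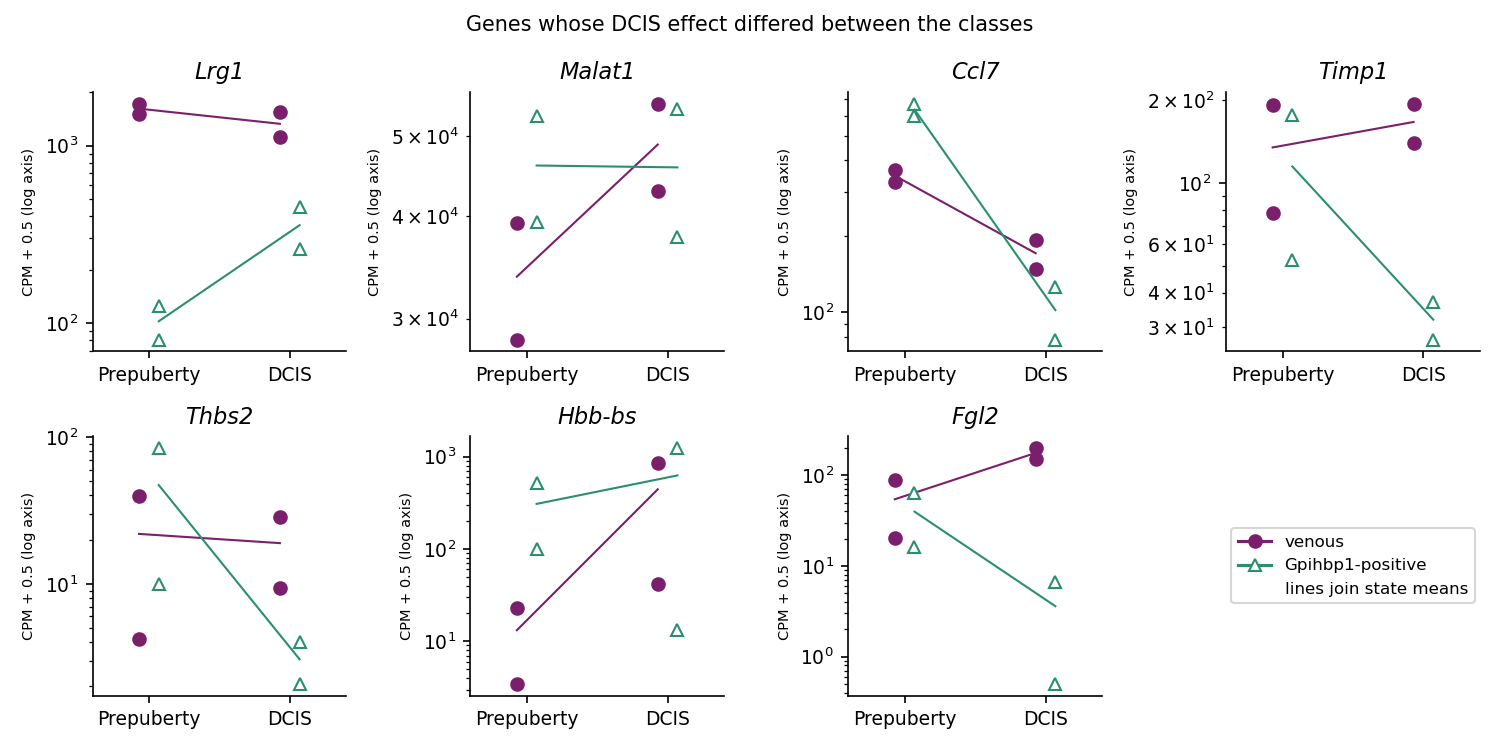
CPM plus 0.5 on a log axis in Prepuberty and DCIS for the genes whose DCIS effect differed between venous (filled) and Gpihbp1-positive (open) cells. Symbols are libraries and lines join the means of the 2 libraries of a state. Lrg1 in venous cells stays between 1114 and 1722 CPM while it goes from 80.3 and 124 to 452 and 260 CPM in Gpihbp1-positive cells.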

How the data were processed

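Single-cell libraries of 6 mammary samples were prepared by the authors with 10x Genomics 3′ kits, and in the deposited matrices each entry is the UMI count of 1 gene in 1 cell, not normalized, from Cell Ranger (software version 3.0.2 per the file headers). The submitters' processing notes name mm10 without saying for which assay. A UMI count is a molecule count, so no length normalization was applied, and depth limits precision: median depths of the venous cells are given with the results.

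Cells were kept with at least 200 genes and under 10% mitochondrial UMIs. Members were chosen by the UMI rule above. The members and the gene lists were chosen with earlier results of these data known. Raw UMIs were summed per library and class, a library entering with at least 10 cells. Sums were tested in R 4.3.3 with edgeR 4.0.16 (TMM, filterByExpr, quasi-likelihood F test, two-sided, Benjamini-Hochberg over all genes tested, threshold 0.05). DCIS against Prepuberty used the state alone over 4 sums. The class contrast and the interaction used 8 sums with the library as a block. SEs come from the F statistic. Shares were compared with an exact permutation test (scipy 1.17.1). Genes named were the 12 largest differences per direction past the threshold with at least 40 UMIs that were separate between states or had 1 sign in all 4 libraries, up to 4 per list, and the markers, or the 6 of smallest p where fewer than 3 passed.

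Alternatives were DESeq2 1.42.0, RLE factors, no filter on low counts, thinning to 2000 UMIs, doublets removed (Scrublet in scanpy 1.11.5, which marked 2.19% to 3.71% of a library; kept otherwise), a limit of 3 on Ackr1 and Selp, a mitochondrial limit of 5%, other blocks and leaving out each library. 2 more were chosen after seeing the data: no limit on Epcam and Ptprc, and only members with an Ackr1 UMI. Where the limit on Ackr1 and Selp was 3, the Gpihbp1-positive class also needed at least 3 Gpihbp1 UMIs. Counts were also simulated, with 66 or 67 genes changed per fold, all with at least 40 UMIs. The DCIS comparison, over 7720 genes, recovered 26.9% of 2-fold, 91% of 4-fold and 100% of 8-fold changes. The class contrast recovered 89.6% of 2-fold changes and the interaction 14.9%, over 8555 genes each. The simulated spread between libraries followed the average trend with level, not that of each gene. The shares recovered in the real libraries are thus not known. Replicate libraries differed by more than sampling noise (chi-square per degree of freedom of 10.3 in Prepuberty and 5.98 in DCIS). Gene positions are from GENCODE on GRCm38 and promoters from RefSeq on GRCm38.p6. Ccl21a has more than 1 feature with its symbol and was not used. Some genes that the rule would name are not reported here.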

Additional observations from a re-analysis of the deposited data

Results flagged for a closer look

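A test of the interaction between class and state picked out 7 genes whose DCIS effect differed between venous and Gpihbp1-positive cells (edgeR, adjusted p under 0.05). As log2 of the venous effect minus that in Gpihbp1-positive cells, the differences were -2.07 for Lrg1, 4.47 for Hbb-bs, 4.98 for Fgl2, 1.63 for Ccl7, 2.08 for Timp1, 4 for Thbs2 and 0.56 for Malat1. Library values are given above for all of them but Thbs2 and Malat1. No state has enough libraries for a test of outlying samples.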

How the results depend on the processing

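The number of genes called between DCIS and Prepuberty in venous cells, 10, was 50 with DESeq2, 357 with no filter on low counts, 33 with doublets removed, 38 with a limit of 3 on Ackr1 and Selp, 6 with thinned cells, 1 with both classes in 1 fit and 0 with library sums thinned to equal depth. RLE factors gave 9 and a mitochondrial limit of 5% gave 8. In alternatives chosen after seeing the data it was 0 with no limit on Epcam and Ptprc and 23 with only members that had an Ackr1 UMI. Leaving out 1 library gave 9 to 362. The 10 genes kept their sign in all 160 combinations of gene and alternative and their call in 109 of them. The replicate numbers do not tie libraries to an animal or day in the labels, and with the replicate block 475 genes passed. The correlation over 7720 genes of the difference between the Prepuberty libraries with that between the DCIS libraries was 0.198, from 2 pairs only. The cause of these changes was not tested.

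The class contrast, 2085 genes, gave 1038 with thinned cells, where fewer genes were tested, 881 with no library block and 1438 to 1856 with 1 library left out. Of 85 genes named with a call in it, all kept their sign, and the call held in 1133 of 1164 combinations. The interaction, 7 genes, gave 109 with no filter on low counts, 3 with doublets removed, 12 with Ackr1-carrying members, 0 with no library block (269 at an unadjusted p under 0.05, edgeR) and 12 to 81 with 1 library left out. Its 7 genes kept their sign in all 97 combinations and their call in 72.

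The share of endothelial cells differed by 14.1 points and by 7.25 to 20.95 with 1 library left out. The share of all cells differed by -0.0724 points, and by 0.0338 with doublets removed, 0.393 with no limit on Epcam and Ptprc, 0.0557 with Ackr1-carrying members and -1.39 to 1.24 with 1 library left out (0.755 without Prepuberty 1 and 1.24 without DCIS 2).

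Among genes not called between states, the sign of the log2 fold change turned with 1 library left out for Vwf (-0.37 to 1.17), Icam1 (-0.16 to 0.85), Vcam1 (-0.16 to 1.22), Glycam1 (-7.45 to 8.32) and Sele (-2.07 to 1.002). Sele also turned to -0.055 with no limit on Epcam and Ptprc and to -0.053 with the replicate block. In the class contrast Chst2, not called, ranged from -0.27 to 1.25 with 1 library left out. Tumor cells were too few for any alternative fit.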
